A study of Mus musculus with 4 samples.

Results

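PDGF and FGF ligands and receptors were followed in MLg cells, lung fibroblasts of the mouse kept as a cell line, through 8 genes: the receptors Pdgfra, Pdgfrb, Fgfr1 and Fgfr2 and the ligands Pdgfa, Fgf2, Fgf7 and Fgf10. The 8 genes were named as a family and not by their values, and all of them were found among the 12767 gene symbols of the expression table. For each symbol the transcript with the highest mean RPKM (reads scaled to transcript length and to the library total) over the libraries stood for the gene. The cells were of wild-type genotype, and total RNA was sequenced under 4 conditions with 1 library each. All cells had been transfected with an antagomiR, a chemically altered oligonucleotide that pairs with a mature microRNA and blocks it. The control and TGFB1 cells had received a negative control antagomiR, and the other cells an antagomiR directed at miR-9-5p, here termed loss-of-function of miR-9 (miR-9-LOF). Human recombinant transforming growth factor beta 1 (TGFB1, 5 ng/ml) was added to the TGFB1 cells and to the TGFB1 with miR-9-LOF cells for the last 4 h. The submitters' texts differ on the transfection, with 60 nM antagomiR and harvest after 24 h in the protocol and 10 nM and 48 h in the design description. The methods of the study give the values of the protocol, without naming the libraries they hold for.

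Platelet-derived growth factors and fibroblast growth factors are secreted proteins that bind receptor tyrosine kinases on mesenchymal and epithelial cells and act through the RAS to ERK and the PI3K to AKT cascades. PDGF-A binds PDGFRA, whereas PDGF-B binds PDGFRB as well as PDGFRA. In the developing lung PDGF-A is made by the epithelium and is needed for alveolar myofibroblasts, while FGF10 and FGF7 are made by the mesenchyme and act on the IIIb splice form of FGFR2 in the epithelium. FGF2 binds mainly the IIIc forms of FGFR1 and FGFR2, and heparan sulfate proteoglycans are co-receptors of FGFs.

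The microRNA that was blocked is shown because its seed is the part that pairs with a target. In the mature sequence from RefSeq (GRCm38.p6) the capitals mark the seed, bases 2 to 8, and the same sequence is encoded at the loci Mir9-1 on chromosome 3, Mir9-3 on chromosome 7 and Mir9-2 on chromosome 13.
miR-9-5p: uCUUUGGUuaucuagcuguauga
The letters complementary to this seed were searched in the 3′ untranslated regions of the GENCODE transcripts matched to the 8 genes, 12 transcripts with an untranslated region in all. They were found once each in 2 of the 8 genes. In Fgf10 they lay 507 bases into an untranslated region of 2799 bases, on the plus strand at chr13:118789801-118789830, and the match is capitalised in the 30 bases around it.
Fgf10 match: cttgggtcatatcatatgcacaACCAAAGg

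In Pdgfrb the seed match lay 1517 bases into an untranslated region of 1678 bases and was followed by the A that extends such a match. The transcripts of Pdgfra, Pdgfa, Fgfr1, Fgfr2, Fgf2 and Fgf7 held no such letters. A match of letters is a description and not evidence of binding.

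Each condition had a single library, so no test between conditions was possible and no p-value is given. The transcript counts summed to between 14718397 (miR-9-LOF) and 27413486 (control), so depth was 1.86 times greater in control cells than after miR-9-LOF. Ratios of RPKM are given with exact 95% binomial intervals from the counts. These intervals cover counting error only and leave out any variation between cultures. Values called log2 changes are log2 ratios of RPKM + 1, which understates the change of low genes. The words rose and fell are used where a log2 change reached 0.58 upward or downward (a ratio of 1.49), provided that the RPKM of the gene averaged at least 1 in the compared libraries. The ribosomal precursor Rn45s with Mir6236 and Lars2 took 19.2%, 34.1%, 16.4% and 28.9% of the counts in the control, miR-9-LOF, TGFB1 and TGFB1 with miR-9-LOF libraries. These reads count toward the library totals by which RPKM is divided. The fibroblast label was checked against markers: 7 of 8 fibroblast markers were in the table, with a summed level of 1350 to 2202 RPKM over the libraries, and Thy1 was not among its rows. Of the epithelial markers 2 of 7 were in the table with a summed level of 0.175 to 0.495 RPKM, and Epcam and Cdh1 were not among its rows. The 1 of 6 endothelial markers in the table stood at 0.0467 to 0.115 RPKM, and the 3 of 6 leukocyte markers at a summed 4.92 to 7.22 RPKM, with Ptprc not among the rows.

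The receptors were expressed at higher levels than the ligands in the control library. Pdgfra, the receptor of PDGF-A and a common marker of mesenchymal cells, stood at 79.7 RPKM (3612 reads) in control cells, 71.5 (1739) in miR-9-LOF cells, 57.3 (2066) in TGFB1 cells and 61.7 (1941) in cells with both treatments. Its level was highest in the control library and lowest with TGFB1 alone. Fgfr1, the FGF receptor typical of mesenchyme, stood at 48.0 RPKM (6237 reads), 53.2 (3712), 71.2 (7358) and 68.0 (6127) in the same order. Both libraries with TGFB1 were above both libraries without it, and Fgfr1 took the first place among the 8 genes from Pdgfra there. Pdgfrb, the receptor that pericytes and fibroblasts use to respond to PDGF-B, stood at 40.5 RPKM (5972 reads), 25.3 (2008), 50.4 (5923) and 37.2 (3805). It was highest with TGFB1 alone and lowest after miR-9-LOF alone. Fgfr2, whose splice forms receive FGF7 and FGF10 or FGF2, stood at 18.6 RPKM (2457 reads), 10.2 (726), 12.0 (1268) and 8.42 (773). The control library was the highest by a wide margin, and the cells with both treatments were the lowest.

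Among the ligands Pdgfa had the highest level in every library. Its transcript stood at 9.54 RPKM (475 reads) in control cells, 6.70 (179) in miR-9-LOF cells, 29.1 (1154) in TGFB1 cells and 20.4 (705) in cells with both treatments. Both libraries with TGFB1 were far above those without, and within each pair the miR-9-LOF library was the lower one. Fgf10, the mesenchymal ligand that directs lung branching, stood at 3.32 RPKM (416 reads), 2.44 (164), 2.43 (242) and 1.68 (146). The libraries with 1 treatment lay close together, below the control library and above the library with both treatments. Fgf7, also called keratinocyte growth factor, stood at 1.505 RPKM (110 reads), 1.25 (49), 0.946 (55) and 1.40 (71), and its counting intervals overlapped in all pairs of libraries but control with TGFB1. Fgf2, a ligand without a classical signal peptide, stood at 0.952 RPKM (18 reads), 0.0985 (1), 2.53 (38) and 2.90 (38). Its single read after miR-9-LOF leaves that level poorly known.

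**Figure D1:**
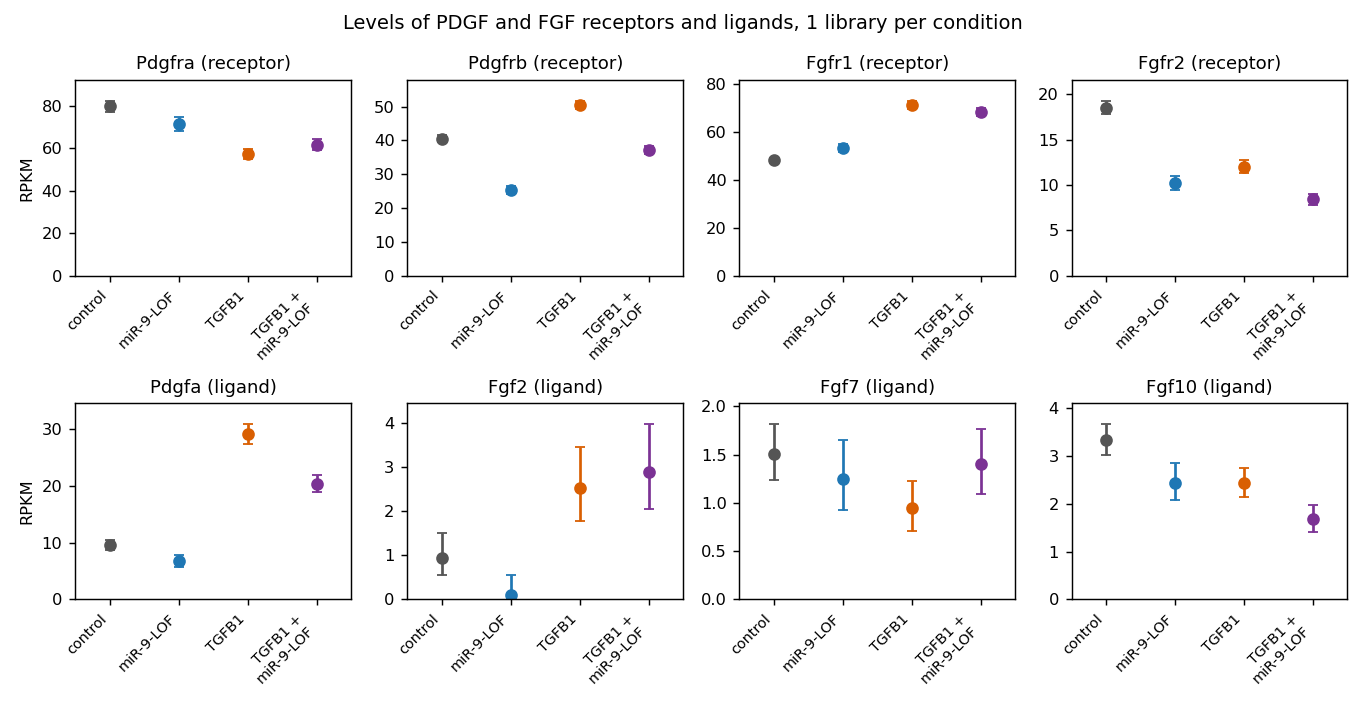
Levels of the 8 genes in RPKM (vertical axes, each from 0) in the 4 libraries, 1 point per library, with bars for the 95% Poisson interval of the counts. Pdgfa stands at 29.1 and 20.4 RPKM in the libraries with TGFB1 against 9.54 and 6.70 without it, and Fgfr2 is highest in the control library at 18.6 RPKM.

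The levels placed the receptors among the more abundant transcripts of these cells. By mean RPKM over the libraries 97.4% of all symbols were lower than Pdgfra, 97.0% lower than Fgfr1, 94.6% lower than Pdgfrb and 82.5% lower than Fgfr2. Pdgfa lay above 86.7% of symbols, but Fgf10, Fgf2 and Fgf7 lay above only 45.2%, 35.7% and 30.5%. The order in control cells was Pdgfra, Fgfr1, Pdgfrb, Fgfr2, Pdgfa, Fgf10, Fgf7 and Fgf2. In both libraries with TGFB1 it became Fgfr1, Pdgfra, Pdgfrb, Pdgfa, Fgfr2, Fgf2, Fgf10 and Fgf7. Pdgfa had thus passed Fgfr2, and Fgf2 had passed Fgf10 and Fgf7. For Fgf2 and Fgf10 under TGFB1 alone the levels were 2.53 and 2.43 RPKM, with counting intervals that overlapped (1.79 to 3.47 and 2.13 to 2.76 RPKM), and so did those of Fgf7 and Fgf2 in the control library.

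Which transcript stands for a gene matters for Pdgfra and Pdgfa. For both, the record with the highest RPKM is annotated as non-coding, NR_144636 of 1653 nt for Pdgfra and NR_156469 of 1816 nt for Pdgfa. These records share exons with the coding ones, and a read in a shared exon counted for each. The coding Pdgfra records of 6547 and 6570 nt stood at 48.2 and 47.9 RPKM in the control library, and their log2 changes after miR-9-LOF were -0.31 and -0.30 beside -0.16 for the short record. With these records Pdgfra and Fgfr1, at 48.0 RPKM, would be level in control cells, so the first place of Pdgfra rests on the record chosen. With the coding record NM_001083316 Pdgfra stood at 32.4 RPKM in TGFB1 cells and 36.1 in cells with both treatments, below Pdgfrb at 50.4 and 37.2. The coding Pdgfa records, NM_008808 and NM_001363271, stood at 9.22 and 8.85 RPKM in control cells and at 28.7 and 27.4 RPKM with TGFB1. The 3 records of Fgfr1, the 3 of Fgfr2 and the 2 of Pdgfrb gave nearly the same values within each gene, since they share most of their reads. The IIIb and IIIc forms of Fgfr2 were therefore not separated. Reads were counted on both strands, so reads in exons shared by opposite genes cannot be told apart. Nudt6 lies opposite to Fgf2 and shares 640 of the 5973 exonic bases of its matched GENCODE transcript. Nudt6 had 31, 12, 42 and 30 reads in control, miR-9-LOF, TGFB1 and doubly treated cells, the lowest count again after miR-9-LOF, and its part in the values of Fgf2 was not tested. The deposited Fgf2 record, on which its reads were counted, covers only 690 nt, and whether the shared bases lie in it was not examined.

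In GRCm38.p6 Pdgfra lies at chr5:75151322-75198206 on the plus strand and Pdgfa at chr5:138976014-139000792 on the minus strand. Pdgfrb lies at chr18:61045127-61085067, Fgfr1 at chr8:25518759-25575718 and Fgf2 at chr3:37348477-37410106, all on the plus strand. Fgfr2 lies at chr7:130162451-130266808 on the minus strand. Fgf7 lies at chr2:126034658-126091185 and Fgf10 at chr13:118714699-118792573, both on the plus strand. Reads of transcripts are exonic by construction of the counting.

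To see how the levels of the family differed after miR-9-LOF in unstimulated cells, miR-9-LOF and control cells were compared. Fgfr2 and Pdgfrb fell, and none of the members that could be called rose. Fgfr2 changed by -0.80 on the log2 scale, a ratio of 0.550 (0.506 to 0.598). Pdgfrb changed by -0.65, a ratio of 0.626 (0.595 to 0.659). The 2 genes that fell were 2 of 7 members tested, beside 6.72% of 9291 genes that fell and 2.03% that rose. A lower change than that of Fgfr2 was found in 1.31% of all genes, and than that of Pdgfrb in 3.86%.

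The other receptors of each pair moved less. Pdgfra changed by -0.16 (ratio 0.897, 0.846 to 0.9498), which turned positive under 6 other scalings, and Fgfr1 by 0.15 (ratio 1.11, 1.06 to 1.15). With the deposited scaling Fgfr1 was the only member above 0, beside a median of -0.17 over all genes and -0.33 over the 7 members. Among the ligands Pdgfa changed by -0.45 (ratio 0.702, 0.588 to 0.835). Fgf10 changed by -0.33 (ratio 0.734, 0.609 to 0.882), and the interval of Fgf7 included 1 (ratio 0.830, 0.58 to 1.17). Fgf2 went from 18 reads to 1, a ratio of 0.103 with an interval of 0.00248 to 0.655, and its mean RPKM was under the minimum of 1, so it was given no call. Of the genes with the seed letters Pdgfrb fell and Fgf10 was not called, and Fgfr2, which fell most of the members called, held none. The part of these letters in the changes was not tested.

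The low side of this comparison rests in part on how the libraries are scaled. All genes had a median of -0.17, and 76.8% of the called genes were lower, against 19.7% to 34.2% under 6 other scalings, which moved the median of all genes by 0.16 to 0.23. In the same scalings the fall of Pdgfrb was between -0.48 and -0.37 and no longer passed 0.58, while Fgfr2 stood between -0.63 and -0.54 and passed it in 4 of 6. Pdgfra turned from -0.16 to between 0.02 and 0.14, and Fgfr1 went to between 0.32 and 0.44 without passing the limit. Pdgfrb, Fgfr1 and Fgfr2 are long transcripts of 4739 to 5385 nt, and of the 858 genes in the same decile of transcript length 89 fell and 2 rose, with a median of -0.28. The part of length in the falls of Pdgfrb and Fgfr2 was not tested, and Fgfr1 in the same decile stood at 0.15. Fibroblast markers were lower in the same comparison: their median was -0.51 over 7 genes, Col1a1 (-0.74) and Lum (-0.71) were past the limit, both inside it under the other scalings, and their sum was lowest in the miR-9-LOF library at 1350 RPKM. Their part in the falls of Pdgfrb and Fgfr2 was not tested.

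**Figure D2:**
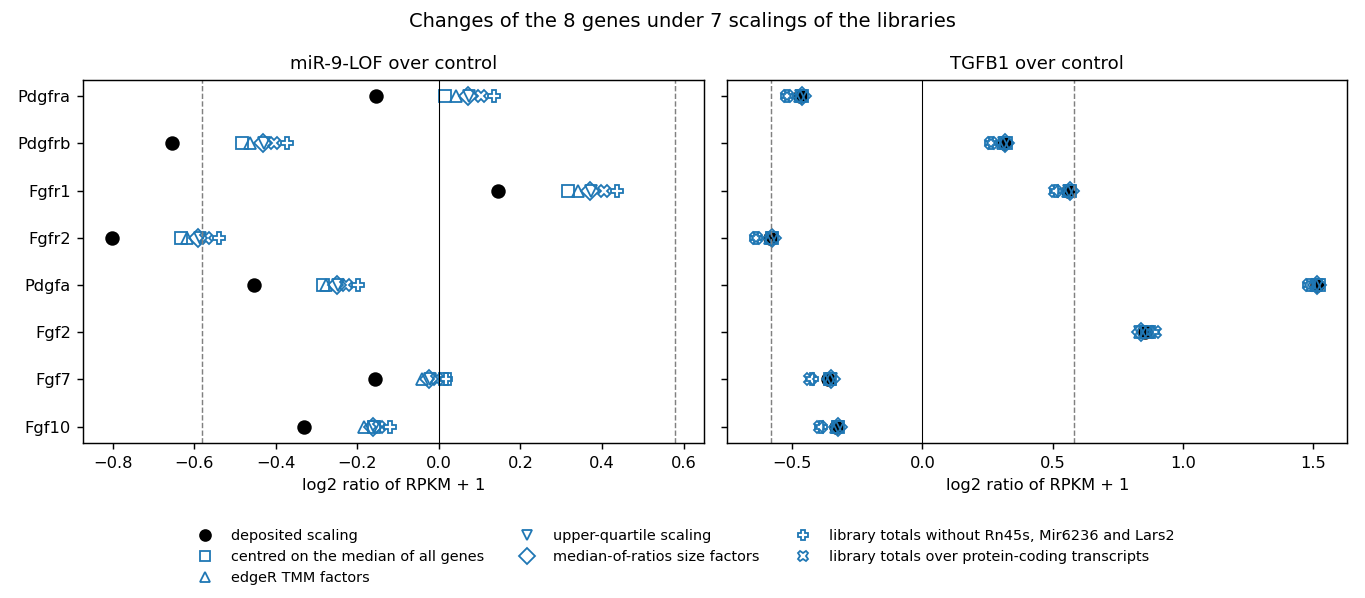
Log2 changes of RPKM + 1 (horizontal axes) of the 8 genes under the deposited scaling (black) and 6 other scalings (blue), for miR-9-LOF over control (left) and TGFB1 over control (right); dashed lines mark the limit of 0.58 and Fgf2 is missing on the left because it was under the RPKM minimum. On the left all members shift to higher values, Pdgfra from -0.16 to between 0.02 and 0.14 and Fgf7 from -0.16 to between -0.04 and 0.02, and on the right Pdgfa stays between 1.48 and 1.52.

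TGFB1 cells were compared with control cells to ask how the levels of the family differed with the stimulus alone. Pdgfa and Fgf2 rose, and Fgfr2 fell. Pdgfa changed by 1.52, a ratio of 3.05 (2.74 to 3.41) and the largest change of the 8 genes here. Fgf2 changed by 0.85, a ratio of 2.65 (1.48 to 4.94) from 18 and 38 reads. Fgfr2 changed by -0.58, a ratio of 0.649 (0.606 to 0.695), which was past the limit by the third decimal (-0.585) and inside it for its longest record NM_010207 (-0.576). In these counts 2 of 8 members rose beside 2.68% of 9527 genes, and 1 of 8 fell beside 2.92%. Fgf2 reached the RPKM minimum only through the TGFB1 library (2.53 RPKM, beside 0.952 in control cells). Its call thus rests on the library where it was high. Of the genes called 52.2% were lower, and 50.4% to 62.4% under the other scalings.

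Fgfr1 lay just inside the limit on the other side, at 0.56 (ratio 1.48, 1.43 to 1.53). Pdgfra, at -0.47 (ratio 0.719, 0.681 to 0.759), and Pdgfrb, at 0.31 (ratio 1.25, 1.20 to 1.29), had intervals on opposite sides of 1. Fgf10 changed by -0.33 (ratio 0.731, 0.622 to 0.859) and Fgf7 by -0.36 (ratio 0.629, 0.446 to 0.877). Fgf7, Fgf10 and Fgfr2, whose IIIb and IIIc forms were not separated, thus all had lower values with TGFB1. The medians were -0.01 over the members and -0.01 over all genes, with 4 members above and 4 below 0.

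The effect of the miR-9 antagomiR was read again in cells given TGFB1, against TGFB1 cells with the control antagomiR. None of the 8 members fell, beside 1.48% of 9535 genes, and none rose, beside 2.06%. Of the genes called 41.8% were lower, and 10.98% to 27.4% under the other scalings. The lowest values were Pdgfa at -0.49 (ratio 0.700, 0.637 to 0.770), Fgfr2 at -0.47 (ratio 0.699, 0.638 to 0.765) and Pdgfrb at -0.43 (ratio 0.737, 0.707 to 0.767). Fgf10 stood at -0.36 (ratio 0.692, 0.559 to 0.853). The intervals of these 4 genes lay below 1, as they did without TGFB1 in libraries that are not used here. Under 5 other scalings the intervals of Fgfr2 and Pdgfrb lay below 1 in both readings. Without TGFB1 those of Pdgfa did so in 3 of 5 and those of Fgf10 in 0 of 5, and with TGFB1 in 5 and 4 of 5. Pdgfra had a ratio of 1.08 (1.01 to 1.15) and Fgfr1 of 0.955 (0.923 to 0.988), and Fgfr1 turned to between 0.01 and 0.17 on the log2 scale under the other scalings. The interval of Fgf2 (0.712 to 1.85) included 1, and that of Fgf7 (1.03 to 2.14) began just above it.

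**Figure D3:**
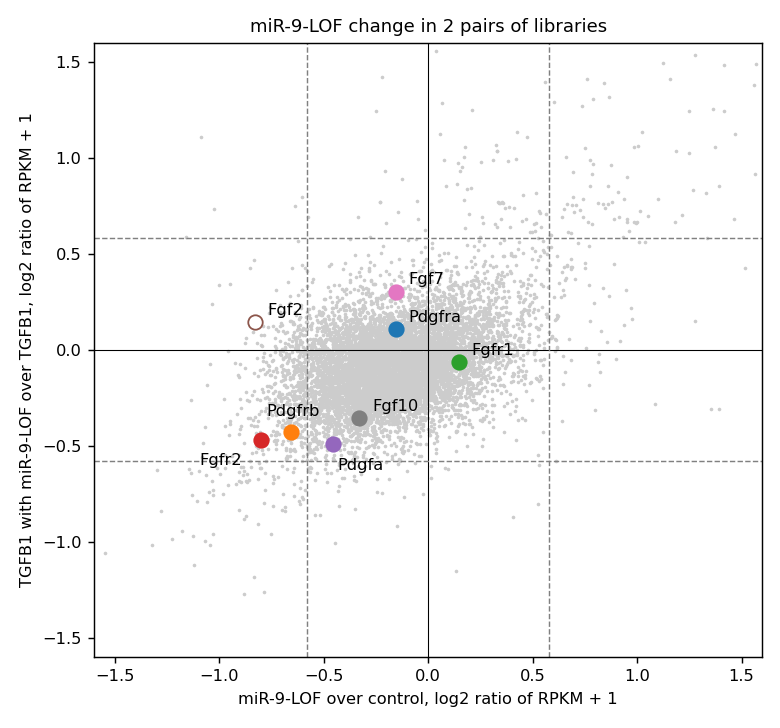
Log2 change of RPKM + 1 after miR-9-LOF without TGFB1 (horizontal axis) and with TGFB1 (vertical axis), from 2 pairs of libraries that share none; grey points are 9132 genes, of which 40 lie outside the axes, coloured points are the 8 genes (Fgf2 is open because it was under the RPKM minimum on the horizontal axis), and dashed lines mark 0.58. Fgfr2, Pdgfrb, Pdgfa and Fgf10 are below 0 on both axes, whereas Pdgfra (-0.16 and 0.11) and Fgfr1 (0.15 and -0.07) lie near the centre. For these last genes only the negative value turns positive under the other scalings, and the positive value keeps its sign.

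The difference between the miR-9-LOF changes with and without TGFB1 was also computed, as log2 ratios of RPKM with counting intervals. With RPKM + 1 its median over 9031 genes was 0.08, with quartiles of -0.10 and 0.26. Pdgfa, whose value was -0.003 (-0.29 to 0.28), and Fgf10, at -0.09 (-0.48 to 0.31), showed nearly equal ratios in both pairs. The change of Fgfr2 was smaller with TGFB1, by 0.34 (0.17 to 0.52), as was that of Pdgfrb, by 0.23 (0.14 to 0.33). These 2 values depend on the scaling: with RPKM + 1 they were 0.33 and 0.22, and 5 other scalings gave 0.20 to 0.28 for Fgfr2 and 0.08 to 0.17 for Pdgfrb. On that scale Pdgfra, Pdgfrb, Pdgfa and Fgf10 lay within the quartiles of all genes and the other 4 members outside them. As a ratio of RPKM the difference was 0.26 (0.14 to 0.39) for Pdgfra and -0.22 (-0.29 to -0.14) for Fgfr1. It was 0.84 (0.13 to 1.54) for Fgf7, from 49 to 110 reads per library, and 3.47 (0.49 to 6.45) for Fgf2, which had 1 read after miR-9-LOF alone.

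The effect of TGFB1 within miR-9-LOF cells gave a second reading of the stimulus from libraries not used for the first. Pdgfa rose by 1.48, a ratio of 3.05 (2.58 to 3.61), beside 3.05 with the control antagomiR. Fgf2 rose from 1 read to 38, a ratio of 29.4 with a wide interval of 4.97 to 1192. With these 2 of 8 members risen and none fallen, 7.13% of 9345 genes rose and 2.48% fell. Fgf2 again reached the RPKM minimum only through the library with TGFB1, so its call rests on the library where it was high. Of the genes called 25.8% were lower, and 38.2% to 53.9% under the other scalings. Pdgfrb stood just inside the limit at 0.53 (ratio 1.47, 1.39 to 1.55), and Fgfr1 at 0.35 (ratio 1.28, 1.23 to 1.33). Fgfr2 changed by only -0.25 (ratio 0.824, 0.744 to 0.913) from an already lower level, and Fgf10 by -0.36 (ratio 0.689, 0.547 to 0.866). Pdgfra had a ratio of 0.864 (0.809 to 0.922), and the interval of Fgf7 (0.768 to 1.65) included 1. The direction of the TGFB1 change was the same in both readings for every member but Fgf7.

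**Figure D4:**
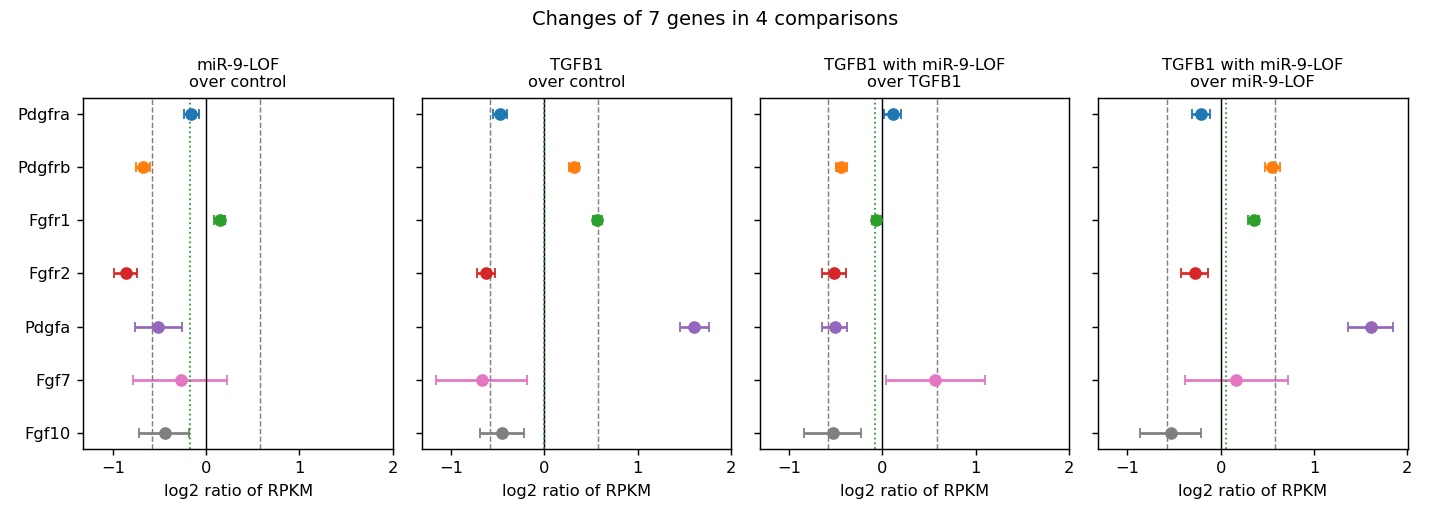
Log2 ratios of RPKM (horizontal axes, without the added 1) of 7 genes in 4 comparisons, with bars for the exact 95% interval of the counts, dashed lines at 0.58 in either direction and a dotted green line at the median of all genes; Fgf2 is left out because its library with 1 read would stretch the axis. Pdgfa lies far to the right in both TGFB1 comparisons, with ratios of 3.05 and 3.05, and Fgfr2 lies left of 0 in all 4. The limit and the median were taken from RPKM + 1. A point can therefore pass a dashed line without a call, as Fgf7 does in TGFB1 over control.

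With both treatments together the cells were set beside the control cells, a comparison chosen after the data had been seen. Fgfr2 fell by 1.05 on the log2 scale, a ratio of 0.454 (0.418 to 0.492). Fgf10 changed by -0.69, a ratio of 0.506 (0.416 to 0.612), though neither treatment alone took it past the limit. These were 2 of 8 members fallen beside 4.65% of 9541 genes. Pdgfa rose by 1.02 (ratio 2.14) and Fgf2 by 1.00 (ratio 3.04, 1.69 to 5.66), 2 of 8 beside 2.76% of genes. Here too Fgf2 reached the RPKM minimum only through the library with TGFB1. Of the genes called 62.8% were lower, and 33.3% to 50.8% under the other scalings. The 4 calls held under all 12 alternatives at the limit of 0.58. Fgfr1 stood at 0.49 (ratio 1.42, 1.37 to 1.47) and passed the limit under 4 of those alternatives.

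The log2 changes of the single treatments were also added, and the sums came closest to the changes of both for Pdgfa and Fgf10. The sum was 1.06 for Pdgfa beside 1.02 measured, and -0.66 for Fgf10 beside -0.69. For Fgfr2 the sum of -1.39 was lower than the measured -1.05. For Pdgfra the sum was -0.62 beside -0.36, and for Fgfr1 it was 0.70 beside 0.49. For Pdgfrb it was -0.34 beside -0.12 and for Fgf7 -0.52 beside -0.06. The widest gap was that of Fgf2, 0.02 beside 1.00, whose sum rests on the library with 1 read. These sums use the control library in both terms and are given as a description. By arithmetic each gap equals the difference of the miR-9-LOF changes with RPKM + 1 given above, so it is not a second result.

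Ratios of 2 members within 1 library do not depend on how the libraries are scaled. The ratio of Fgfr1 to Fgfr2 was 2.59 (2.47 to 2.71) in control cells, 5.21 (4.81 to 5.65) in miR-9-LOF cells, 5.91 (5.57 to 6.28) in TGFB1 cells and 8.08 (7.49 to 8.72) in cells with both. In every treated library the balance of the FGF receptors lay further toward Fgfr1 than in the control library. The intervals of the control library and of the library with both treatments overlapped with no other. The ratio of Pdgfra to Pdgfrb was 1.97 (1.89 to 2.05), 2.82 (2.64 to 3.01), 1.14 (1.08 to 1.19) and 1.66 (1.57 to 1.76) in the same order. Here miR-9-LOF gave a higher and TGFB1 a lower ratio, and none of the 4 intervals overlapped. Although free of scaling, these ratios depend on the record chosen: with the coding Pdgfra record NM_001083316 they were 1.19 (1.15 to 1.23), 1.53 (1.45 to 1.62), 0.642 (0.618 to 0.668) and 0.971 (0.930 to 1.01), in the same order of libraries and again without overlap. The ratio of Pdgfa to its receptor Pdgfra was 0.120 (0.109 to 0.132), 0.0937 (0.0799 to 0.109), 0.508 (0.473 to 0.547) and 0.331 (0.303 to 0.361), so the ligand gained on the receptor with TGFB1. Between miR-9-LOF and its paired library the intervals of this ratio overlapped without TGFB1 and did not overlap with it. With the coding records NM_008808 and NM_001083316 the ratio was 0.191, 0.171, 0.884 and 0.547. The ratio of Fgf10 to Fgf7 was 2.21 (1.79 to 2.75), 1.95 (1.41 to 2.75), 2.57 (1.91 to 3.51) and 1.20 (0.898 to 1.62), and only the interval of the last lay below those of the control and TGFB1 libraries.

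**Figure D5:**
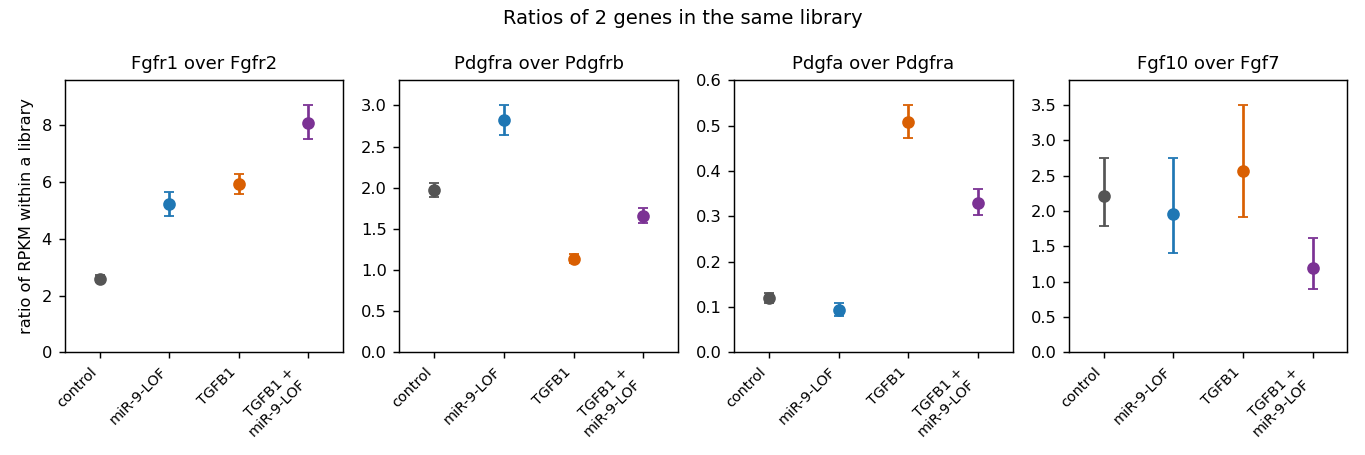
Ratios of RPKM of 2 genes within the same library (vertical axes, each from 0) in the 4 libraries, with bars for the exact 95% interval of the counts. Fgfr1 over Fgfr2 goes from 2.59 in control cells to 8.08 with both treatments, and Pdgfra over Pdgfrb is highest after miR-9-LOF (2.82) and lowest after TGFB1 (1.14) with the records chosen.

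Genes whose 3 changes from the control library came closest to those of each receptor and of Pdgfa were sought among 4407 genes whose RPKM averaged at least 5, with the largest of the 3 differences as the measure of likeness. For Pdgfra these were Snx33 (0.03) and Ndufb7 (0.05), for Pdgfrb Dstn (0.04) and Pfdn4 (0.06), for Fgfr1 Ak1 (0.05) and Prkcd (0.08), and for Fgfr2 Jph2 (0.08) and C3 (0.09). Within 0.1 there were 24 genes for Pdgfra but 2 for Fgfr2 and 0 for Pdgfa. The genes nearest to Pdgfa were Pmepa1 (0.22), a TGF-beta response gene, and Zfp469 (0.24).

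The remaining ligands of the families were scarce. Of 22 other PDGF and FGF ligands 6 were in the table, and only Pdgfb and Pdgfc reached the RPKM minimum. Pdgfb, a ligand of both PDGF receptors, stood at 1.65, 1.13, 3.96 and 2.40 RPKM in the order of control, miR-9-LOF, TGFB1 and TGFB1 with miR-9-LOF. Pdgfc, a ligand that acts mainly through PDGFRA, stood at 2.72, 2.28, 5.39 and 4.82 RPKM. Both rose with TGFB1, by 0.90 and 0.78, beside 2.68% of all genes. Both also rose with it in miR-9-LOF cells, by 0.67 and 0.83, beside 7.13% of all genes. All 3 PDGF ligands above the RPKM minimum thus had higher values with the stimulus, and these rises held under all 6 other scalings. Pdgfd, under the minimum, had 13 reads in control and 9 in TGFB1 cells. Neither Pdgfb nor Pdgfc rose or fell after miR-9-LOF, with log2 changes of -0.31 and -0.18 without TGFB1 and of -0.55 and -0.14 with it.

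Of the 20 other receptors, co-receptors and ligand carriers 14 were in the table and 11 were tested. After miR-9-LOF 2 fell and 1 rose, beside 6.72% and 2.03% of all genes. The heparan sulfate proteoglycans Sdc4, from 71.2 to 43.8 RPKM, and Sdc2, from 23.7 to 14.9, fell by 0.69 and 0.64, but stood at -0.52 to -0.40 and -0.47 to -0.37 under the other scalings, inside the limit. Gpc1, a glypican, rose from 12.8 to 26.1 RPKM, a log2 change of 0.97 that the other scalings raised to between 1.14 and 1.27. With TGFB1 Flrt2, of a family of transmembrane proteins that bind FGF receptors, rose from 1.54 to 4.86 RPKM (1.21) and Gpc1 to 22.8 RPKM (0.78), while Sdc4 changed by -0.59. These were 2 risen and 1 fallen of 11, beside 2.68% and 2.92% of all genes. Fgfrl1, an FGF receptor without a kinase domain, stood between 12.3 and 15.3 RPKM and was not called in any comparison.

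The intracellular members of the pathway moved little with TGFB1. None of 23 adaptors and transducers tested rose or fell with it, beside 2.68% and 2.92% of all genes. After miR-9-LOF 2 fell, the PI3K subunit Pik3r1 (-0.62) and the FGF receptor adaptor Frs2 (-0.58). Beside the 6.72% of all genes that fell in that comparison, both calls were lost under all 6 other scalings, with values of -0.48 to -0.44 and -0.43 to -0.37. The median of this list after miR-9-LOF was -0.32 beside -0.17 over all genes. Of 9 feedback inhibitors tested Spry1, an inhibitor of RAS to ERK signalling, fell after miR-9-LOF both without (-0.62) and with TGFB1 (-0.79). Of all genes 6.72% and 1.48% fell in these comparisons. Under the other scalings only the second fall of Spry1 kept its call (-0.72 to -0.61). None of these inhibitors was called with TGFB1 over control under the deposited scaling, and 0 to 1 fell under the other scalings. Their median was 0.31 beside -0.01 over all genes, and Spry2, at -0.57 just inside the limit, was the lowest of them. Among 8 ERK-induced targets tested Fosl1 rose after miR-9-LOF, by 0.69 without and 0.61 with TGFB1, and all 6 other scalings kept both calls. The 8 targets had medians of 0.03 and 0.19 in these comparisons, in which 2.03% and 2.06% of all genes rose. With TGFB1 the median of the 8 targets was -0.25, and 1 fell beside 2.92% of all genes. This was the cyclin Ccnd1, from 55.4 to 27.9 RPKM (-0.96).

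Other receptor tyrosine kinases were used to read the receptors against. Of 18 tested 2 fell after miR-9-LOF, Igf1r (-0.64) and Epha4 (-0.62), none rose, and their median was -0.26. Of all genes 6.72% fell and 2.03% rose, and both calls were lost under all 6 other scalings (-0.47 to -0.37 for Igf1r and -0.50 to -0.45 for Epha4). With TGFB1 none of the 18 rose or fell, beside 2.68% and 2.92% of all genes, and their median was -0.16 beside -0.01. Axl was the highest of them at 222 RPKM in control cells, above Pdgfra. Pericyte and smooth muscle markers, cells that express Pdgfrb, were summed beside it: 5 of 6 were in the table and stood at 27.1, 21.97, 41.0 and 28.8 RPKM in the usual order, and the sum was highest with TGFB1 alone and lowest after miR-9-LOF alone, as Pdgfrb was. Cspg4 made up 28.9 of the 41.0 RPKM in TGFB1 cells, and it and Mcam had their extremes in these same libraries, whereas Notch3 and Des were highest in control cells and Myh11 lowest there. The proteoglycan Cspg4 (1.07) and Notch3 (-0.80) changed in opposite directions with TGFB1, Rgs5 was not among the rows, and the part of such cells in the values of Pdgfrb was not tested. In bulk RNA fewer cells that express a gene and less RNA per cell cannot be told apart.

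Promoter sequences are shown for Pdgfa, the member that rose most in TGFB1 over control, and for Fgfr2, the called member that fell most in miR-9-LOF over control, because runs of G, which can fold into G-quadruplexes, were a subject of the study. In RefSeq promoters of GRCm38.p6, from 250 bases before to 50 after a start site, 6 of the 8 genes were matched, and Pdgfrb and Fgfr1 were not. The pattern searched on both strands was 4 runs of 3 or more G separated by 1 to 7 bases. Capitals mark it as runs of C, which is the pattern on the other strand, in the promoter of Pdgfa at chr5:138994895-138995194 (minus strand), 9 bases from the start of the nearest GENCODE transcript.
Pdgfa promoter: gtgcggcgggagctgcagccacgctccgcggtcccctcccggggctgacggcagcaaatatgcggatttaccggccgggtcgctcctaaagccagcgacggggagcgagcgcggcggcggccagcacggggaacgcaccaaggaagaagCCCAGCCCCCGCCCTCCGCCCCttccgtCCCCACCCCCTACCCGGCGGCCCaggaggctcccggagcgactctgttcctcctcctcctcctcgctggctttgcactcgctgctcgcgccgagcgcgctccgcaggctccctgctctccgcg
The Fgfr2 window at chr7:130266759-130267058 (minus strand) held none, but its start site lies 545 bases from the nearest start of any GENCODE transcript of the gene.
Fgfr2 promoter: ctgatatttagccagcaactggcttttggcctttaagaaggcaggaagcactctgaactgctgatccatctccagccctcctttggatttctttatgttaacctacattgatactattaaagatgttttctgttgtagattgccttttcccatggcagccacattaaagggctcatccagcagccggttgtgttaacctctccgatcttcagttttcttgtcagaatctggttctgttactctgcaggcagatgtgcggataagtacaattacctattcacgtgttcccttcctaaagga
The Pdgfa window held 2 matches and 73.3% G and C, and a second Pdgfa window held 3 matches. The Fgfr2 window had 43.7% G and C, beside a median of 52.7% over 32851 promoters. Windows of Pdgfra, Fgf2 and Fgf10 held 1, 1 and 2 matches, that of Fgf7 held 0, and 18.6% of all promoters held at least 1. The letters CAGAC or GTCTG, a motif of SMAD proteins, were in the windows of Pdgfra, Fgf2 and Fgf7 and in 49.6% of all promoters, and in neither window of Pdgfa. A match is a description of letters and not of binding or folding.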

How the data were processed

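Total RNA of MLg cells was sequenced with 1 library for each of 4 conditions, and groups were taken from the sample labels. The authors trimmed reads with Trimmomatic (0.36), aligned them to mm10 with Bowtie2 and, with HOMER, counted those in exons of each RefSeq transcript irrespective of strand. Counts were deposited as whole numbers for 25388 transcripts. RPKM values were computed by the authors in edgeR and deposited with 1 added to each. The deposited log2 fold changes were not used. Library totals behind the RPKM values were 27416665, 14719887, 21807187 and 19019174 for control, miR-9-LOF, TGFB1 and TGFB1 with miR-9-LOF.

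RPKM was taken as the deposited value minus 1, with 1 transcript per symbol. A gene was tested if its RPKM averaged at least 1 in the compared libraries and called at a log2(RPKM + 1) change of 0.58, the limit of the study. With 1 library per condition no test was made. Exact binomial intervals at 95% (SciPy 1.17.1) cover counting error only, and PCR duplicates could not be recognised. Alternatives used edgeR 4.0.16 in R 4.3.3 for scaling factors. Scripts were tested on simulated data. Genes named besides the members were those of the lists that passed the limit, and the 2 most alike genes per member at an average RPKM of at least 5. Genes named without passing it (Fgfrl1, Spry2, Axl, Pdgfd and the single cell type markers) were chosen after their values were seen. The members and lists were chosen with earlier results of these data known.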

Additional observations from a re-analysis of the deposited data

Results flagged for a closer look

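The receptors Pdgfra and Fgfr1 changed in opposite directions after miR-9-LOF without and with TGFB1, in pairs of libraries that share none. The log2 change of Pdgfra was -0.16 without and 0.11 with TGFB1, a difference of 0.26. The log2 change of Fgfr1 was 0.15 without and -0.07 with TGFB1, a difference of -0.21. Neither difference was tested, since each condition had 1 library. Under the other scalings of library totals the difference was between 0.12 and 0.20 for Pdgfra and between -0.36 and -0.27 for Fgfr1, and each gene was then above 0 in both pairs.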

How the results depend on the processing

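With 1 library per condition no replicate could be left out. No paired analysis was possible because each condition had a single library. Of the 13 alternatives, the limit of 1 applied only to the counts of members called. Over the other 12, 382 of 468 values of single members moved by less than their counting interval, 86 moved by more, and no called value changed sign. Of the counts of members called, miR-9-LOF over control had 2 fallen, but 1 (Fgfr2) after centring on the median of all genes, with TMM, upper-quartile or median-of-ratios scaling, and 0 with library totals without Rn45s, Mir6236 and Lars2, with totals over protein-coding transcripts or at a limit of 1. With no filter on mean RPKM it was 3, with Fgf2. TGFB1 over control had 1 fallen (Fgfr2), but 2 (with Fgf7) without the added 1, and 0 at a limit of 1, after centring, with upper-quartile or median-of-ratios scaling, with the longest transcript or with the transcript with the most reads. Its 2 risen became 1 (Pdgfa) at a limit of 1. For both treatments over control, the 2 fallen became 1 (Fgfr2) and the 2 risen 1 (Pdgfa) at a limit of 1. The choice of protein-coding records only was added after seeing the data and moved none of these counts. Depth limits Fgf2 most, with 1 to 38 reads per library, and then Fgf7 with 49 to 110.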
